A study of Mus musculus with 6 samples.

Results

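The caveolar coat of inguinal white fat (iWAT) was followed in mice with and without an *Hlx* transgene through 8 genes, taken by symbol from the 19445 loci of the deposited expression table. They are the caveolins *Cav1*, *Cav2* and *Cav3*, the cavins *Ptrf* (now *Cavin1*), *Sdpr* (*Cavin2*) and *Prkcdbp* (*Cavin3*), and the accessory genes *Ehd2* and *Pacsin2*. Each symbol had 1 row. RNA-Seq was performed on iWAT of 3 *Hlx* transgenic mice and 3 wild-type (WT) littermates, all 12 weeks old and labelled male, with 1 library per mouse. The transgene is full-length *Hlx* cDNA, a homeobox transcription factor, driven by the *aP2* (*Fabp4*) promoter, which is active in adipocytes. It was injected into C57BL/6 × SJL hybrid embryos, and the lines were then backcrossed to C57BL/6. The labels and methods do not say which transgenic line was sequenced.

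Caveolae are small flask-shaped pits of the plasma membrane. Caveolins are hairpin membrane proteins that oligomerise in the inner leaflet, and cavins assemble on them from the cytosol to form the striated outer coat. EHD2, a membrane-bound ATPase, sits at the neck and holds the pit at the surface, and PACSIN2 is an F-BAR protein that bends membrane. Adipocytes and endothelial cells are among the cells richest in caveolae, where they are known for buffering membrane tension and for roles in lipid uptake and insulin signaling. CAV3 and the related muscle cavin MURC form the caveolae of striated muscle.

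Levels are FPKM, a density of reads scaled by transcript length and by the mapped reads of the library, so that genes can be compared per length. *Hlx* was at 110, 79.6 and 99.5 FPKM in transgenic replicates 1, 2 and 3 and at 6.88, 7.35 and 8.14 FPKM in WT replicates 1, 2 and 3. The table does not separate transgene from endogenous *Hlx* reads. The sex in the labels was not matched by the data, since *Xist*, the RNA of the inactive X chromosome, was at 20.2 to 33.6 FPKM in the 6 libraries and all 28 loci on the Y chromosome were listed at 0. Both genotypes were alike in this. Fat markers were abundant in every mouse, with the 7 adipocyte markers that had a row summing to 25304 to 34490 FPKM, mostly *Fabp4*. Total depth is unknown. The spacing of low values gave estimated relative depths from 0.691 (transgenic replicate 3) to 1.41 (WT replicate 2), with WT replicate 3 set at 1. Only 14.0% to 16.7% of the low values lay on the spacing used.

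Sequences upstream of the start sites are shown for the most abundant caveolin, its chromosomal neighbour, the most abundant cavin and the coat gene with the smallest standard error, so that their start sites can be compared with how the genes differed. *Cav2* and *Cav1* lie head to tail on chromosome 6, on the plus strand, with 17204 bases between the end of the RefSeq *Cav2* gene and the start of *Cav1*. The other coat genes lie apart from them and from each other, except that *Cav3* shares the chromosome and that *Ehd2* and *Prkcdbp* are both on chromosome 7. The windows are the 250 bases before the first RefSeq start of each gene in GRCm38.p6, 5′ to 3′ on the gene's strand. Capitals mark letters of 3 motifs on either strand. The GC box is spelled GGGCGG. The CCAAT box is spelled by its name. The TATA box is spelled TATAAA, and each also counts where its reverse complement stands in the printed strand.
Cav1, chr6:17306085-17306334, plus strand: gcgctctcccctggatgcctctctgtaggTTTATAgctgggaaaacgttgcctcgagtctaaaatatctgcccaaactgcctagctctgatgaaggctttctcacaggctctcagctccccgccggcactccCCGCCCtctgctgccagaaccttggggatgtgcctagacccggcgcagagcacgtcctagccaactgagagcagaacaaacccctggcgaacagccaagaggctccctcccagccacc
Cav2, chr6:17280935-17281184, plus strand: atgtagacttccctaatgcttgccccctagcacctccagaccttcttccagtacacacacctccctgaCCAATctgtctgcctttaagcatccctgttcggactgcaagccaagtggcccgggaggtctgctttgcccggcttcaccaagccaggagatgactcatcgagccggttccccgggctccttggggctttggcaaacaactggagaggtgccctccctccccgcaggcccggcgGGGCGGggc
Ptrf, chr11:100970618-100970867, minus strand: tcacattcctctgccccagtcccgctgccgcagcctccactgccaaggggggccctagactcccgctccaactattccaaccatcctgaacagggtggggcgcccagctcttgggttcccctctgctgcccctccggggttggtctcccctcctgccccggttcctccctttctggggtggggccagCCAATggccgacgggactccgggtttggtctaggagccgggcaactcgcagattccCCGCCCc
Sdpr, chr1:51288876-51289125, plus strand: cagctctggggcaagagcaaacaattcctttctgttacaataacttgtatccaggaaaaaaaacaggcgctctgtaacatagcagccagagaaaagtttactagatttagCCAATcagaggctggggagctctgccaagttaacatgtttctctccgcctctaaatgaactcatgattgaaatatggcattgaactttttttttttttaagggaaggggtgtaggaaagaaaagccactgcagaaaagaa
RefSeq windows were found for 7 of the 8 coat genes, *Prkcdbp* being the exception. At their first start, 5 of the 7 held a GC box (*Cav1*, *Cav2*, *Ptrf*, *Ehd2* and *Pacsin2*), against 32.7% of 32817 mouse windows of that length. Those mouse windows cover every listed start of a gene and not the first alone, so the sets are unlike. A CCAAT box was in 5 of the 7 (*Cav2*, *Ptrf*, *Sdpr*, *Ehd2* and *Pacsin2*), against 33.8%. The TATAAA letters were only in the *Cav1* window among these 7, against 12.4%. No first window held the homeobox core TAATTA (4.85% of mouse windows) or the E box CACGTG (6.02%), where both strands were searched. The Hlx motif used by the authors was not searched for, and none of the Hlx motif sequences they list contains TAATTA. Its absence therefore does not tell whether the windows hold Hlx sites. The *Sdpr* window was the poorest in G and C of those printed, at 40.4%, against 59.6% for *Cav1*, 62.0% for *Cav2* and 67.6% for *Ptrf*, and the median mouse window was at 52.4%. At later starts, the *Cav1* and *Pacsin2* windows held no GC, CCAAT or TATA box, and the second *Ptrf* window held a GC box and a CCAAT box. These matches describe the letters and no binding was measured.

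In WT iWAT the coat genes differed widely in level. *Cav1* averaged 513 ± 112 FPKM (SD, n = 3) and ranked 114 of 19445 loci, within the top 0.586%. *Ptrf* followed at 315 ± 19.7 FPKM and *Ehd2* at 281 ± 49.1 FPKM, and their ranges overlapped. *Prkcdbp* (138 ± 36.7 FPKM) and *Sdpr* (136 ± 3.69 FPKM) came next and also overlapped. *Cav2* averaged 58.7 ± 14.9 FPKM and *Pacsin2* 23.4 ± 0.628 FPKM, neither overlapping its neighbours in the order, and *Cav3* was the lowest at 0.109 ± 0.0632 FPKM, ranking 13547 of 19445 loci. In transgenic iWAT the order was the same save that *Sdpr* (103 ± 5.87 FPKM) stood above *Prkcdbp* (80.2 ± 9.23 FPKM) in each of the 3 mice. In WT iWAT *Prkcdbp* stood above *Sdpr* in only 1 mouse, replicate 2, so the order by mean there rested on that mouse. Ranges of *Cav1* (347 ± 41.2 FPKM) and *Ptrf* (271 ± 40.2 FPKM) overlapped there, although *Cav1* was the higher in each transgenic mouse.

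**Figure D1:**
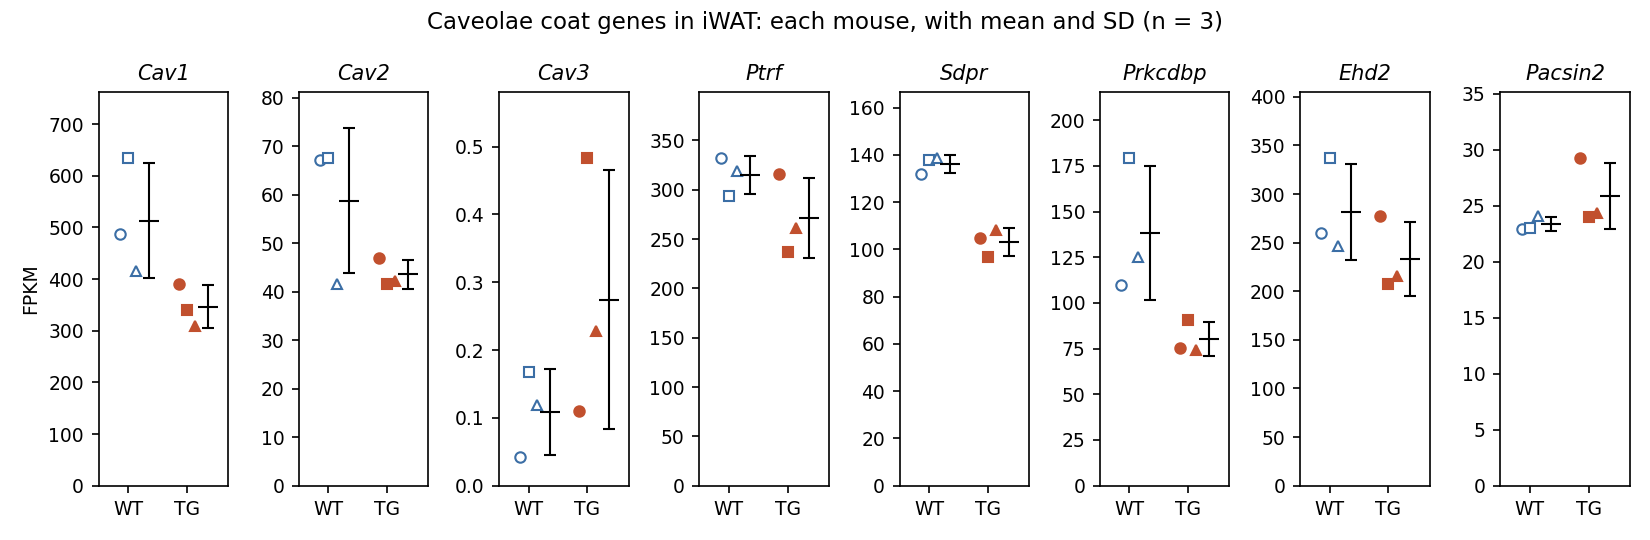
FPKM of the 8 coat genes in each of the 3 WT and 3 transgenic (TG) mice, one panel per gene with its own linear axis from 0, and the mean ± SD beside the points (circle, square and triangle for replicates 1, 2 and 3). *Cav1*, *Sdpr* and *Prkcdbp* show all transgenic mice below all WT mice, and *Cav3* stays under 0.5 FPKM in every mouse.

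The coat genes were compared between genotypes in a limma fit on log2(FPKM + 1) across the 11692 loci with a mean over 1 FPKM in at least 1 genotype, with two-sided p-values adjusted by Benjamini-Hochberg over all of them and a call at an adjusted p under 0.05. *Sdpr* and *Prkcdbp* fell in transgenic iWAT, by 24.2% and 42.0% in mean FPKM, and no coat gene rose. *Cav1* averaged 32.4% less without passing the test. Of the 7 coat genes tested, 6 had a lower mean in transgenic mice, 2 were called lower and 5 were not called. Among all tested loci 7.03% were called lower and 11.6% higher. The median log2 fold change was −0.39 over the 7 and −0.01 over all tested loci. In whole tissue, fewer caveolae-rich cells and less RNA per cell cannot be told apart.

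*Cav1*, which encodes the scaffold without which non-muscle caveolae do not form, was at 391, 340 and 309 FPKM in transgenic replicates 1, 2 and 3 and at 488, 635 and 416 FPKM in WT replicates 1, 2 and 3. The lowest WT mouse stood above the highest transgenic mouse, and WT replicate 2 stood far above the other WT mice. The log2 fold change was −0.55 (SE 0.18, 95% interval −0.97 to −0.13), with an adjusted p of 0.0723. *Cav2*, whose protein needs CAV1 to reach the membrane, was at 46.9, 41.5 and 42.2 FPKM in transgenic and 67.0, 67.6 and 41.5 FPKM in WT replicates 1, 2 and 3. WT replicate 3 lay with the transgenic mice, whereas the other 2 WT mice lay well above them. Its log2 fold change was −0.39 (SE 0.19, 95% interval −0.84 to 0.05, adjusted p = 0.181), and it passed in 1 of 14 alternative fits, without WT replicate 3 (−0.62, adjusted p = 0.0167). It was −0.28 without WT replicate 1 (adjusted p = 0.383) and −0.27 without WT replicate 2 (adjusted p = 0.397). The genes share a noncoding neighbour, since the annotated antisense RNA *Gm15581* overlaps both loci (*Cav1*, chr6:17306176-17342861; *Cav2*, chr6:17281133-17289825, mm10). The library kit does not mark strand, so its reads cannot be told apart from theirs.

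*Ptrf*, the core cavin on which the others assemble, was at 316, 237 and 261 FPKM in transgenic and 333, 294 and 319 FPKM in WT replicates 1, 2 and 3 (locus chr11:100956661-100973136, minus strand). Transgenic replicate 1 lay within the WT range and the groups overlapped. The log2 fold change was −0.22 (SE 0.13, 95% interval −0.53 to 0.08, adjusted p = 0.258). *Sdpr*, a cavin that drives membrane curvature, was at 105, 96.7 and 108 FPKM in transgenic and 132, 138 and 139 FPKM in WT replicates 1, 2 and 3. Both groups were tight, with coefficients of variation of 5.68% and 2.71%, and they did not overlap. *Sdpr* fell by 0.40 on the log2 scale (SE 0.08, 95% interval −0.59 to −0.20, adjusted p = 0.0191). Its listed locus (chr1:51218385-51333779) spans 115395 bases against 13835 for the RefSeq gene. The antisense gene *9330175M20Rik* overlaps the annotated *Sdpr* gene, and its reads cannot be separated by strand here. The rest of the listed locus was not searched for other genes.

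*Prkcdbp*, the cavin named for its binding of a protein kinase C isoform, was at 75.3, 90.8 and 74.4 FPKM in transgenic and 110, 180 and 125 FPKM in WT replicates 1, 2 and 3. The groups did not overlap, and WT replicate 2 was again the highest mouse. *Prkcdbp* fell by 0.75 on the log2 scale (SE 0.19, 95% interval −1.20 to −0.31, adjusted p = 0.0345), the largest difference of the 7 tested. Without WT replicate 2 the fold change was −0.55 and the adjusted p 0.0512. Leaving out other single mice also ended the call, with an adjusted p of 0.0931 without transgenic replicate 1, 0.105 without transgenic replicate 3 and 0.0785 without WT replicate 3. The *Sdpr* call was lost in the same manner without transgenic replicate 3 (adjusted p = 0.0507), WT replicate 2 (0.0676) or WT replicate 3 (0.0646), while its log2 fold change stayed between −0.43 and −0.35 over the 6 mice left out in turn. The *Prkcdbp* locus (chr7:105479960-105482321, minus strand) overlaps *Gm45667*, a predicted transcript on the other strand.

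The accessory genes did not pass the test. *Ehd2* was at 277, 208 and 215 FPKM in transgenic and 260, 338 and 247 FPKM in WT replicates 1, 2 and 3 (chr7:15946844-15967550, minus strand). Transgenic replicate 1 exceeded WT replicates 1 and 3, and the log2 fold change was −0.27 (SE 0.17, 95% interval −0.66 to 0.12, adjusted p = 0.285). *Pacsin2* was at 29.3, 24.0 and 24.4 FPKM in transgenic and 22.9, 23.1 and 24.1 FPKM in WT replicates 1, 2 and 3 (chr15:83375606-83464606, minus strand, with the processed pseudogene *Gm5417* inside it). It was the 1 tested coat gene with a higher transgenic mean, at a log2 difference of 0.14 (SE 0.09, 95% interval −0.08 to 0.36, adjusted p = 0.328). Transgenic replicate 2 lay just under WT replicate 3 and the groups overlapped.

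**Figure D2:**
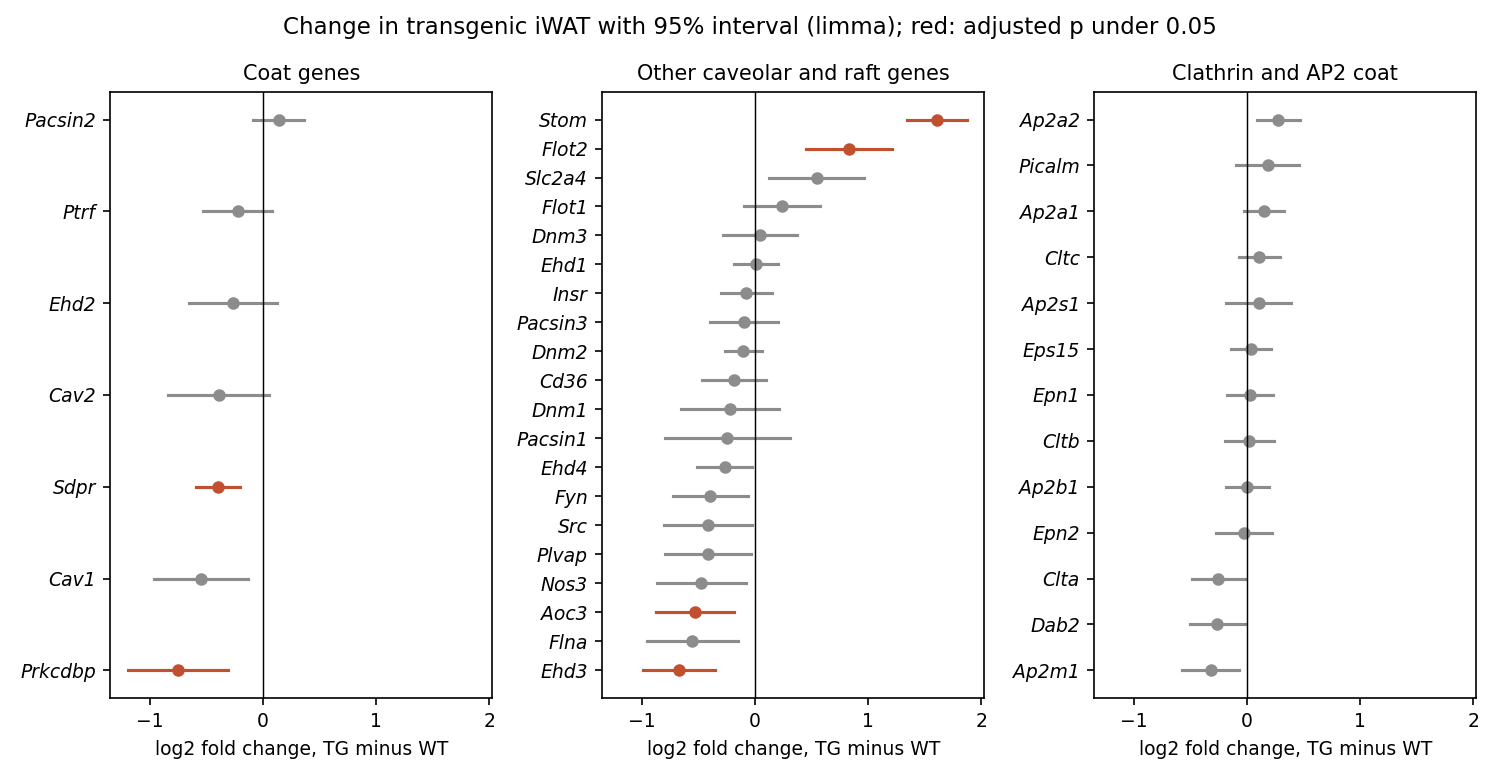
Log2 fold change of log2(FPKM + 1), transgenic minus WT, for the 7 tested coat genes, the 20 tested partner genes and the 13 tested clathrin coat genes, with 95% intervals from limma and red points for an adjusted p under 0.05. *Sdpr*, *Prkcdbp*, *Ehd3* and *Aoc3* are called below 0, *Stom* (1.60) and *Flot2* (0.83) above it, and no clathrin coat gene is called.

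Counted by overlap alone, 3 of the 7 tested coat genes (*Cav1*, *Sdpr* and *Prkcdbp*) were lower in transgenic mice with no overlap between genotypes, while 20.1% of all tested loci were. For each of the 3 the exact permutation test on log2(FPKM + 1) gave p = 0.1, the smallest value that 20 arrangements of 3 against 3 mice allow. The same exact test gave p = 0.2 for *Ptrf* and *Pacsin2* and p = 0.3 for *Cav2*, *Cav3* and *Ehd2*. The coat genes are abundant, so they were also set beside loci of like level. Of the 707 tested loci with a WT mean over 100 FPKM, which include 5 coat genes, 10.2% were called lower, 23.3% were called higher and 22.6% were lower without overlap. Summed over the 8 coat genes, expression was 1240, 1039 and 1035 FPKM in transgenic and 1412, 1675 and 1312 FPKM in WT replicates 1, 2 and 3. The summed caveolins averaged 391 ± 43.7 FPKM in transgenic and 572 ± 123 FPKM in WT mice, a ratio of 0.683. The summed cavins averaged 455 ± 36.9 and 589 ± 19.3 FPKM, a ratio of 0.771.

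**Figure D3:**
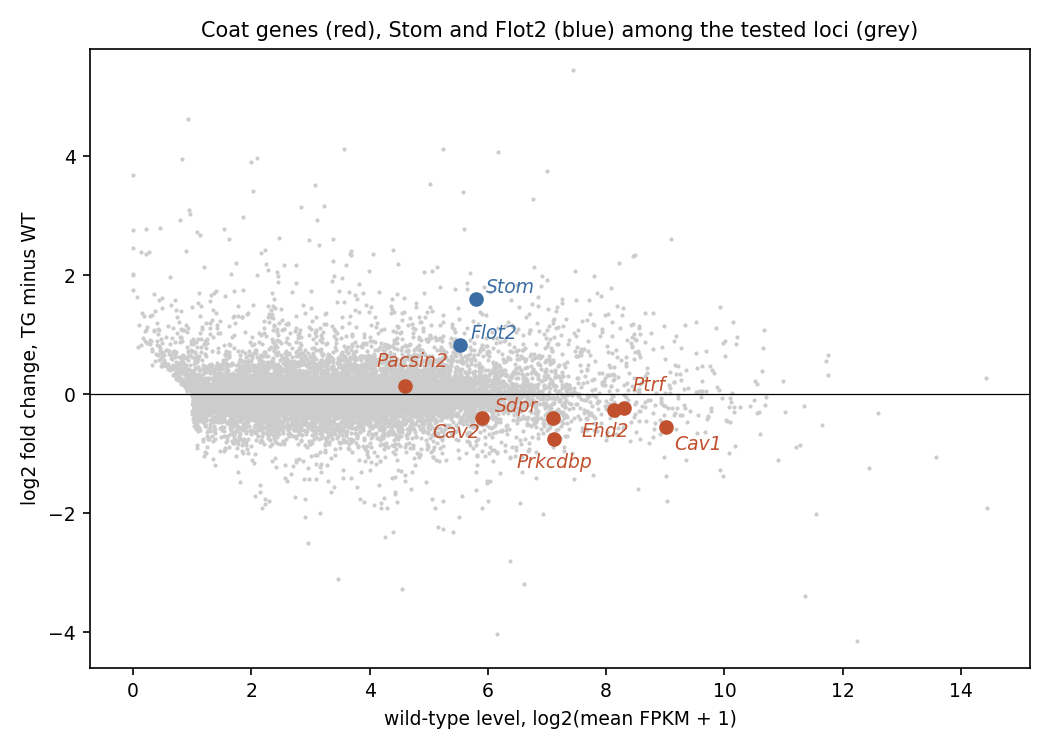
Log2 fold change, transgenic minus WT, of the 11692 tested loci (grey) against their WT level as log2(mean FPKM + 1), with the 7 tested coat genes in red and *Stom* and *Flot2* in blue. Coat genes lie in the right part of the cloud, between −0.75 and 0.14, and many grey loci of like level lie farther from 0.

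The size of these differences depended on scaling. Under quantile normalization 5 coat genes were called lower, *Cav1* (−0.87, adjusted p = 0.00752), *Ptrf* (−0.58, adjusted p = 0.0130), *Ehd2* (−0.57, adjusted p = 0.0321), *Sdpr* (−0.55) and *Prkcdbp* (−0.93). That setting moved abundant loci as a class, the median fold change of the 707 loci over 100 FPKM in WT mice going from 0.04 to −0.18, and 28.4% of these loci and 9.26% of all tested loci were then called lower. Median-ratio scaling moved the median of all tested loci by −0.01 and left the call at 2 coat genes. Ratios of 1 coat gene to another within a mouse do not depend on a scaling factor of that mouse, and 6 were compared.

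*Ehd2* relative to *Cav1* was 0.709, 0.611 and 0.696 in transgenic and 0.533, 0.531 and 0.592 in WT replicates 1, 2 and 3. Each transgenic mouse had more *Ehd2* per *Cav1* than each WT mouse, a log2 difference of 0.28 with an exact permutation p of 0.1 and an adjusted p of 0.3 over the 6 ratios. *Pacsin2* relative to *Cav1* was 0.0750, 0.0706 and 0.0788 in transgenic and 0.0470, 0.0363 and 0.0578 in WT replicates 1, 2 and 3. These did not overlap either, at a log2 difference of 0.69 with the same exact p of 0.1 and adjusted p of 0.3. The other 4 ratios overlapped. Their log2 differences were 0.15 for *Cav2*/*Cav1* (exact p = 0.4), 0.33 for *Ptrf*/*Cav1* (exact p = 0.2), −0.18 for *Sdpr*/*Ptrf* (exact p = 0.3) and −0.53 for *Prkcdbp*/*Ptrf* (exact p = 0.2). Single mice weighed on these 4. Without WT replicate 2, *Ptrf*/*Cav1* was 0.11 and *Prkcdbp*/*Ptrf* −0.28, and without transgenic replicate 1, *Sdpr*/*Ptrf* was −0.07. *Cav2*/*Cav1* ran from 0.06 (without WT replicate 3) to 0.29 (without WT replicate 1). *Sdpr*/*Ptrf* was 0.030 under quantile normalization, a change of sign. With 3 mice per genotype the exact test cannot give a p under 0.1. *Cav1* supplied 31.4% ± 1.44 (SD, n = 3) of the summed coat gene FPKM in transgenic and 34.7% ± 3.09 (SD, n = 3) in WT mice. The genotypes overlapped in this share, which was not tested.

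**Figure D4:**
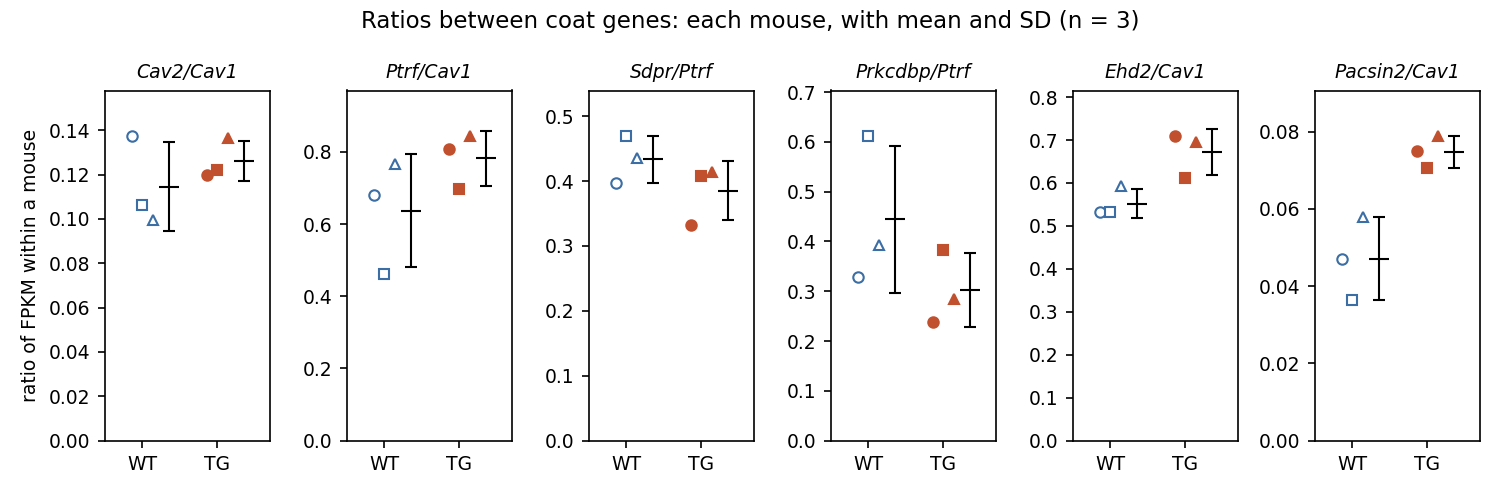
Ratio of FPKM between pairs of coat genes within each mouse, one panel per ratio with a linear axis from 0, WT and transgenic (TG) mice as points and the mean ± SD (n = 3) beside them. *Ehd2*/*Cav1* and *Pacsin2*/*Cav1* show every transgenic mouse above every WT mouse, and the other 4 ratios overlap.

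The coat genes also differed in which mouse was high within a genotype. WT replicate 2 was the highest WT mouse for *Cav1*, *Cav2*, *Cav3*, *Prkcdbp* and *Ehd2* but the lowest for *Ptrf*. Transgenic replicate 1 was the highest transgenic mouse for *Cav1*, *Cav2*, *Ptrf*, *Ehd2* and *Pacsin2*. Across the 6 mice, likeness was measured as the root mean square difference of log2(FPKM + 1) after centring each gene, among 8320 loci with a mean over 5 FPKM. The loci most like *Cav1* were *Chst12* (0.0710), *Ptges* (0.0738), *Aoc3* (0.0912), *Anxa1* (0.0978) and *Cdc42ep4* (0.0998), and its nearest coat genes were *Ehd2* (0.164) and *Cav2* (0.169). Those most like *Ptrf* were *Klf15* (0.0476), *Fto* (0.0573), *Slc38a7* (0.0605), *Ppp2r1b* (0.0621) and *Setd6* (0.0625), and its nearest coat gene was *Sdpr* (0.151). The named loci were picked as the nearest of 8320, with coat genes left out of the search. Their smaller distances therefore do not show whether coat genes vary together, and the rank of coat genes was not computed. *Prkcdbp* and *Ptrf* stood 0.422 apart, the widest pair of these comparisons.

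*Cav3* was under the expression filter and was not tested. It was at 0.110, 0.484 and 0.228 FPKM in transgenic and 0.0418, 0.167 and 0.118 FPKM in WT replicates 1, 2 and 3, averaging 0.274 ± 0.191 and 0.109 ± 0.0632 FPKM, and the groups overlapped. Transgenic replicate 2 was the highest and WT replicate 1 the lowest. The same 2 mice were at the ends for skeletal muscle RNA, whose 9 markers with a row summed to 99.5, 705 and 135 FPKM in transgenic and 7.52, 146 and 37.3 FPKM in WT replicates 1, 2 and 3. None of the 9 muscle markers was called in limma, beside 11.6% called higher and 7.03% called lower among all tested loci. All 9 had a positive log2 fold change, with a median of 2.17, and 2 had an unadjusted limma p under 0.05. *Myh4* was listed at 0 in WT replicate 1. *Murc*, the muscle cavin, had its highest and lowest values in the same mice, at 0.171, 0.587 and 0.323 FPKM in transgenic and 0.108, 0.359 and 0.183 FPKM in WT replicates 1, 2 and 3. Between those ends the orders differed, since transgenic replicate 1 had more muscle marker FPKM than WT replicate 3 but slightly less *Cav3*. The part of muscle tissue in the *Cav3* values was not tested.

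**Figure D5:**
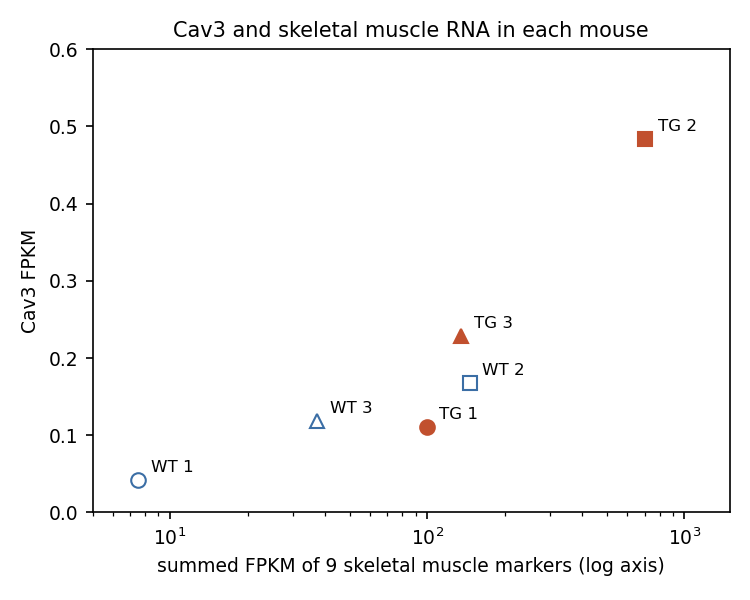
*Cav3* FPKM in each mouse against the summed FPKM of 9 skeletal muscle markers on a log axis, with WT mice as open and transgenic (TG) mice as filled points labelled by replicate. Transgenic replicate 2, at 705 FPKM of muscle markers, is highest for *Cav3*, and WT replicate 1, at 7.52 FPKM, is lowest.

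Among 22 partner genes of caveolae and related membrane domains, 20 were tested. Of these 20, 2 were called higher and 2 lower, beside 11.6% called higher and 7.03% called lower among all tested loci. So few calls are not far from these shares. The median over the 20 was −0.20 on the log2 scale. Both that rose encode raft scaffolds outside the caveolar coat. *Stom*, encoding stomatin, was at 197, 152 and 158 FPKM in transgenic and 54.2, 55.1 and 54.3 FPKM in WT replicates 1, 2 and 3 (log2 fold change 1.60, SE 0.11, adjusted p = 0.000536). *Flot2*, a flotillin, was at 98.9, 72.0 and 72.3 FPKM in transgenic and 45.6, 51.2 and 38.0 FPKM in WT replicates 1, 2 and 3 (0.83, SE 0.16, adjusted p = 0.0147). Neither overlapped between genotypes, and both passed at an adjusted p under 0.05 in each of 14 alternative fits. Of the 2 stricter calls, an adjusted p under 0.01 and a 2-fold ratio of means, *Stom* passed both and *Flot2* neither. The other flotillin gene, *Flot1*, was not called (0.24, adjusted p = 0.274).

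Of the partners that fell, *Aoc3*, an amine oxidase of the adipocyte surface, was at 227, 200 and 215 FPKM in transgenic and 292, 379 and 268 FPKM in WT replicates 1, 2 and 3 (−0.53, SE 0.15, adjusted p = 0.0458). *Ehd3*, an EHD2 relative of endosomes, averaged 7.67 ± 1.21 FPKM in transgenic and 12.8 ± 1.72 FPKM in WT mice (−0.67, SE 0.14, adjusted p = 0.0173). Neither overlapped between genotypes, yet *Aoc3* was lost in 8 and *Ehd3* in 4 of the 14 alternative fits, and both under the 2 stricter calls. The other EHD genes were not called, at 0.01 for *Ehd1* and −0.27 for *Ehd4*, nor were the dynamins, which pinch vesicles from the membrane, at −0.22 (*Dnm1*), −0.10 (*Dnm2*) and 0.04 (*Dnm3*). *Slc2a4*, the insulin-responsive glucose transporter, had a log2 difference of 0.55 (adjusted p = 0.0736), and the insulin receptor gene *Insr* one of −0.08. *Flna*, which ties CAV1 to actin, was at −0.55 (adjusted p = 0.0632) and the fatty acid transporter *Cd36* at −0.19, both not called. The partner genes of endothelial caveolae, *Nos3* (−0.47, adjusted p = 0.0914) and *Plvap* (−0.42, adjusted p = 0.111), did not pass, nor did the kinases *Src* (−0.42) and *Fyn* (−0.39).

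For the other endocytic coat, 13 of 14 clathrin and adaptor genes were tested, and limma called none. Among all tested loci it called 11.6% higher and 7.03% lower. At an unadjusted limma p under 0.05 there were 1 higher and 3 lower of the 13, beside 2267 higher and 1963 lower of all 11692 tested loci. Their log2 fold changes ran from −0.32 (*Ap2m1*) to 0.28 (*Ap2a2*, adjusted p = 0.0529), with a median of 0.02 against −0.39 for the caveolar coat. The lists were described by counts and no test compared them.

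Markers of cell types with and without caveolae were read in the same mice. Beside the counts of each list, 11.6% of all tested loci were called higher and 7.03% lower. A single call in a short list therefore says little about its cell type. Of 10 endothelial markers 2 rose (*Kdr*, 0.35, and *Emcn*, 0.50) and 1 fell (*Cldn5*, −0.76), and their sum was 209 to 224 FPKM in transgenic and 210 to 218 FPKM in WT mice. Of 8 markers of smooth muscle and pericytes, *Mcam* alone was called (−0.76), and the sums were 216 to 319 and 288 to 373 FPKM. Among adipocyte markers 2 of 7 fell (*Adipoq*, −0.85, and *Lpl*, −0.67), the sums overlapping at 29137 to 34490 FPKM in transgenic and 25304 to 31273 FPKM in WT mice. Most of each sum was *Fabp4*, at 24561 to 29363 FPKM in transgenic and 19297 to 23539 FPKM in WT mice. *Fabp4* was not called (0.28, adjusted p = 0.531). These sums therefore say little about the other adipocyte markers. Of the 7 log2 fold changes, 3 were positive and 4 negative. Of 8 brown adipocyte markers 7 rose, and their sum was 6130 to 7934 FPKM in transgenic and 613 to 1052 FPKM in WT mice. Of 7 macrophage markers 4 fell, and their sum was 358 to 510 FPKM in transgenic and 754 to 955 FPKM in WT mice. Of 7 fibroblast markers 1 fell (*Dpt*, −1.37), with sums of 1397 to 1957 and 2050 to 2592 FPKM, and 1 of 7 lymphocyte markers fell (*Ms4a1*, −0.76), with sums of 152 to 227 and 228 to 333 FPKM. None of 7 epithelial markers was called, at sums of 127 to 258 FPKM in transgenic and 217 to 295 FPKM in WT mice, where 1 had an unadjusted limma p under 0.05. The part of these cell types in the lower *Sdpr* and *Prkcdbp* levels was not tested.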

How the data were processed

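RNA was sequenced from iWAT of 3 transgenic and 3 WT mice, grouped by the genotype in the labels. The authors prepared unstranded TruSeq libraries and sequenced them single-end to 100 bases. Reads were aligned by the authors to mm10 (TopHat), loci were quantified (Cufflinks) and genotypes compared (Cuffdiff). The submitters' processing notes name CASAVA 1.8.2, TopHat2 2.0.9, Bowtie2 2.1.0 and Cufflinks 2.2.1. The annotation is not given in the sources used here. The authors deposited FPKM per locus and mouse, all of which were used. FPKM carry no counts, so no count test was run, and depth was only estimated, relative to WT replicate 3. Low FPKM are less precise in the shallower libraries.

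From these, log2(FPKM + 1) was fitted in limma 3.58.1 under R 4.3.3, with lmFit and a trended eBayes, two-sided, and Benjamini-Hochberg adjustment over the 11692 loci whose mean exceeded 1 FPKM in either genotype. The procedure was tested on simulated data. Single genes and ratios used an exact permutation test over 20 arrangements. The alternatives changed the pseudocount (to 0.1), the filter (none, or on the mean of all mice), the scaling (quantile or median-ratio), the eBayes trend, the weights of samples, a block for the replicate number, the mice entered (leaving out 1 at a time) and the strictness of a call. The members and the marker, partner and clathrin lists were chosen with earlier results of these data known. The text names all coat genes, *Hlx*, called partner and clathrin genes with other partners by value, the 5 loci most like *Cav1* and *Ptrf* by the measure given there, and up to 3 members of each marker list by highest mean FPKM. Outside that rule, *Kdr*, *Emcn*, *Cldn5*, *Ms4a1*, *Myh4*, *Ap2m1* and *Ap2a2* were named after their values were seen. For 4 marker symbols no row of their own was found (*Tnnt3*, *Pnpla2*, *Cd79a* and *Krt14*). Upstream sequences came from RefSeq (GRCm38.p6) and neighbouring genes from GENCODE. Figures were drawn with matplotlib 3.10.9 in Python 3.11.15.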

Additional observations from a re-analysis of the deposited data

How the results depend on the processing

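No called value changed sign, but the uncalled *Sdpr*/*Ptrf* ratio did, with quantile normalization. Among values recomputed per result and setting, 288 stayed alike, 37 counts or ratios moved, 5 values of *Cav1*, *Cav2*, *Ptrf* and *Ehd2* newly passed, and 30 values of *Sdpr*, *Prkcdbp*, *Ehd3*, *Aoc3* and *Flot2* no longer passed. Those alike include counts that shifted by a modest factor and ratios that shifted by less than their pooled SD. Some could not differ, such as uncalled genes under a stricter call and mean ratios under the block. Coat genes called lower numbered 1 without a filter, 5 with quantile normalization, 3 with sample quality weights, 0 at an adjusted p under 0.01, 0 at a 2-fold ratio and 0 to 2 with 1 mouse left out, against 2. *Cav1* also passed with sample quality weights (−0.70, adjusted p = 0.0290), and *Pacsin2* passed nowhere (0.05 to 0.19). Partners called lower numbered 1 without a filter, 3 with quantile normalization, 0 at an adjusted p under 0.01, 0 at a 2-fold ratio and 0 to 2 with 1 mouse left out, and partners called higher numbered 1 under both stricter calls. Clathrin genes called higher numbered 1 without a filter, 1 with median-ratio scaling and 1 with quality weights, and 1 was called lower with quantile normalization. Over all loci, 569 were higher and 199 lower at an adjusted p under 0.01, 413 and 204 at a 2-fold ratio, and 780 to 1295 and 329 to 906 with 1 mouse left out. They numbered 1611 higher and 1185 lower with quality weights, 1300 and 1083 with quantile normalization, and 1151 and 638 without a filter. With quantile normalization the log2 differences of *Cav2*/*Cav1*, *Sdpr*/*Ptrf* and *Pacsin2*/*Cav1* were 0.40, 0.030 and 0.97. Fewer mice in the fit bear on the counts with 1 left out, and the cause of the other shifts was not tested.

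Replicate numbers are shared by the genotypes, but same-numbered mice deviated together weakly (r = 0.013, 0.034 and 0.070 across genes), so the numbers were not read as pairs. With the number as a block, coat genes called lower stayed 2 in number (*Sdpr*, adjusted p = 0.0358, and *Prkcdbp*, 0.0180), *Aoc3* was lost (0.0751), and all loci gave 1230 higher and 656 lower. With 3 mice per genotype, coat genes with intervals that include 0 may differ by the amounts inside them.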
